A study of Homo sapiens with 18 samples.

Results

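The 9 genes described here are the BCL2-type survival genes BCL2, BCL2L1, BCL2L2, MCL1, BCL2A1 and BCL2L10 and the BAX-type effector genes BAX, BAK1 and BOK. They were chosen by name, as the rows of the deposited expression table whose Ensembl identifiers map to these symbols, and each had 1 row among 40184 gene identifiers. RNA was sequenced from 3 human cell lines of acute myeloid leukaemia, treated for 24 h with vehicle (DMSO) or 500 nM RMC-4550, a compound that inhibits the phosphatase SHP2. The genotype of Molm-14 and of MV4-11 is FLT3-ITD, an internal tandem duplication in a receptor gene, and that of SKNO-1 is KIT N822K. Medium for SKNO-1 alone held 10 ng/mL GM-CSF, so that growth factor and line cannot be told apart. Each of the 6 groups held 3 libraries that the labels call biological replicates. Each genotype other than FLT3-ITD is represented by a single cell line, and p-values measure only the spread between the libraries, which nothing in the labels ties to cultures grown apart.

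Cells commit to the mitochondrial route of apoptosis when BAX or BAK1 proteins assemble into pores in the outer mitochondrial membrane. The survival proteins hold the effectors in check through a surface groove that binds the BH3 helix, and the BH3-only proteins, such as the products of BCL2L11 and BMF, occupy that groove under stress or when growth signals are lost. Venetoclax is a drug that fills the groove of BCL2 and is used in acute myeloid leukaemia. MCL1 and the product of BCL2L1 (BCL-XL) are bound by it weakly or not at all, which is why the make-up of the survival genes in a leukaemia is of interest. The comparisons asked how the survival genes were apportioned in each line and which of the 9 genes changed with SHP2 inhibition.

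The gene models below are those of GENCODE 29 on build GRCh38, and expression values are given per gene, not per transcript. BCL2 (ENSG00000171791) lies at chr18:63123346-63320128 on the minus strand, and its longest transcript has 7461 bases, of which 717 code for protein. MCL1 (ENSG00000143384) is a compact gene at chr1:150574551-150579738 on the minus strand. BCL2L1 (ENSG00000171552) lies at chr20:31664452-31723989 on the minus strand and BCL2L2 (ENSG00000129473) at chr14:23298790-23311759 on the plus strand. BCL2A1 (ENSG00000140379) and BCL2L10 (ENSG00000137875) are both on the minus strand of chromosome 15, at chr15:79960889-79971446 and chr15:52109263-52112775. The effectors BAX (ENSG00000087088), BAK1 (ENSG00000030110) and BOK (ENSG00000176720) lie at chr19:48954815-48961798 (plus), chr6:33572547-33580293 (minus) and chr2:241551424-241574138 (plus).

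The promoters of the main effector genes are shown first, because BAX and BAK1 give most of the effector transcript. Both stretches end at the base before the annotated gene, are written 5′ to 3′ on the gene's own strand, and come from the RefSeq table of build GRCh38.p14, in which 6 of the 9 genes had a promoter entry. In BAX, at chr19:48954695-48954814 on the plus strand, capitals mark CACGTG, the letters of the E-box bound by basic helix-loop-helix factors, which read alike on both strands. In BAK1, at chr6:33580294-33580413 on the minus strand, capitals mark GGGCGG or its reverse complement, the letters of the GC box. Marked letters of the 2 motifs do not overlap.
BAX: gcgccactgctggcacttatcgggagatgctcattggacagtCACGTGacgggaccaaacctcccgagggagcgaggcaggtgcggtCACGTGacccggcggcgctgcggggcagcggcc
BAK1: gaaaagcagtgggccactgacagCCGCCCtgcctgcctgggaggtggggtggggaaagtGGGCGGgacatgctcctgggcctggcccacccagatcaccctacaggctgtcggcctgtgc
The 250-base window of BAX in that table held CACGTG at 4 places, of which 2 lie in the stretch shown. CACGTG occurred in 6.34% of the 35116 promoters of the same length, and 0.0142% held it at 4 or more places. GGGCGG on either strand occurred at 2 places in the BAK1 window, at 1 place each in those of BAX and BOK, and in 42.6% of all promoters. The windows of BCL2, BCL2A1, BCL2L1 and BOK held no CACGTG. The BCL2A1 window held 2 CpG dinucleotides, fewer than in most promoters (14.7% had fewer), whereas that of BCL2 held 24, against a median of 11. These matches describe the letters of the windows only.

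Library totals ran from 17434810 to 19959917 reads. Reads in 23 mitochondrial genes made up 5.07% to 7.02% of 14 libraries and over 10% of the other 4. These 4 were replicate 2 of Molm-14 with RMC-4550 (15.0%), replicates 1 and 3 of MV4-11 with DMSO (12.7% and 14.6%), and replicate 1 of MV4-11 with RMC-4550 (10.5%). Levels of some of the 9 genes moved with this share, so results that rest on these libraries are, where computed, given with and without them. Leaving out all 4 keeps 1 DMSO library in MV4-11, so each MV4-11 comparison of that setting rests on it. The summed level of 8 myeloid markers (among them CD33, SPI1 and MPO) was 676 to 1439 CPM, where CPM is the usual depth-scaled read count. The T cell markers CD3E, CD3D and CD2 summed to at most 0.0577 CPM, the B cell markers to at most 17.8, the erythroid markers to at most 2.498, the epithelial markers to at most 36.3 and the fibroblast markers to at most 14.8 CPM, with none of these genes at 0 in every library.

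MCL1 was the most abundant survival transcript in all 18 libraries. To compare genes, levels were divided by the length of each gene's longest transcript, and shares were taken of the summed level of the 6 survival genes. MCL1 encodes a short-lived protein that is held at a steady level by continuous synthesis. With DMSO it made up 75.1% ± 0.643 of the survival total in Molm-14, 78.5% ± 0.119 in MV4-11 and 71.1% ± 0.941 for SKNO-1 (SD, n = 3 in each). With this length the 3 lines did not overlap in the MCL1 share, with SKNO-1 lowest and MV4-11 highest. With median transcript length it was 63.5% ± 1.05 in Molm-14, 64.8% ± 0.768 in MV4-11 and 54.2% ± 1.49 for SKNO-1. The gap between Molm-14 and MV4-11 thus depends on the length used.

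BCL2, the venetoclax target, was a minor part of that total. With DMSO it took 7.86%, 8.56% and 8.26% of the survival total in the Molm-14 libraries. It took 9.06%, 8.82% and 8.54% in SKNO-1. In MV4-11 the shares were 4.75%, 7.65% and 4.94%, and the high value belonged to replicate 2, the DMSO library of that line below 10% mitochondrial reads. Without the other libraries, the MV4-11 value of 7.65% rests on that library alone. Shares depend on the length used: with coding length in place of the longest transcript, BCL2 made up 19.8% in Molm-14, 14.2% in MV4-11 and 20.3% for SKNO-1, since the BCL2 messenger RNA is mostly untranslated sequence. The BCL2 to MCL1 ratio per length with DMSO was 0.110 ± 0.00555 in Molm-14, 0.0736 ± 0.0205 in MV4-11 and 0.124 ± 0.00315 for SKNO-1 (SD, n = 3).

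The other survival genes set the lines further apart. BCL2L1, which encodes BCL-XL, took 9.23% ± 1.14 of the total in SKNO-1, 4.97% ± 0.456 in MV4-11 and 4.43% ± 0.342 in Molm-14 (SD, n = 3). BCL2A1, an NF-kB target of myeloid cells, took 6.30% ± 0.377 in Molm-14, 3.23% ± 0.787 in MV4-11 and 1.57% ± 0.173 for SKNO-1. The order of BCL2A1 and BCL2L1 in Molm-14 turned with the length used, since with coding length BCL2A1 took 2.87% and BCL2L1 3.83% there. In the other lines BCL2A1 was the lower of the pair with either length. BCL2L2, which encodes BCL-W, took 5.88% ± 0.527 in Molm-14, 6.598% ± 0.634 in MV4-11 and 8.72% ± 0.372 for SKNO-1. Its share depended strongly on the length used. With median transcript length it was 18.9%, 20.6% and 25.2% in the same order, above BCL2 in each line (7.60%, 5.22% and 7.34%). BCL2L10 took less than 1% of the total in every line with DMSO.

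**Figure D1:**
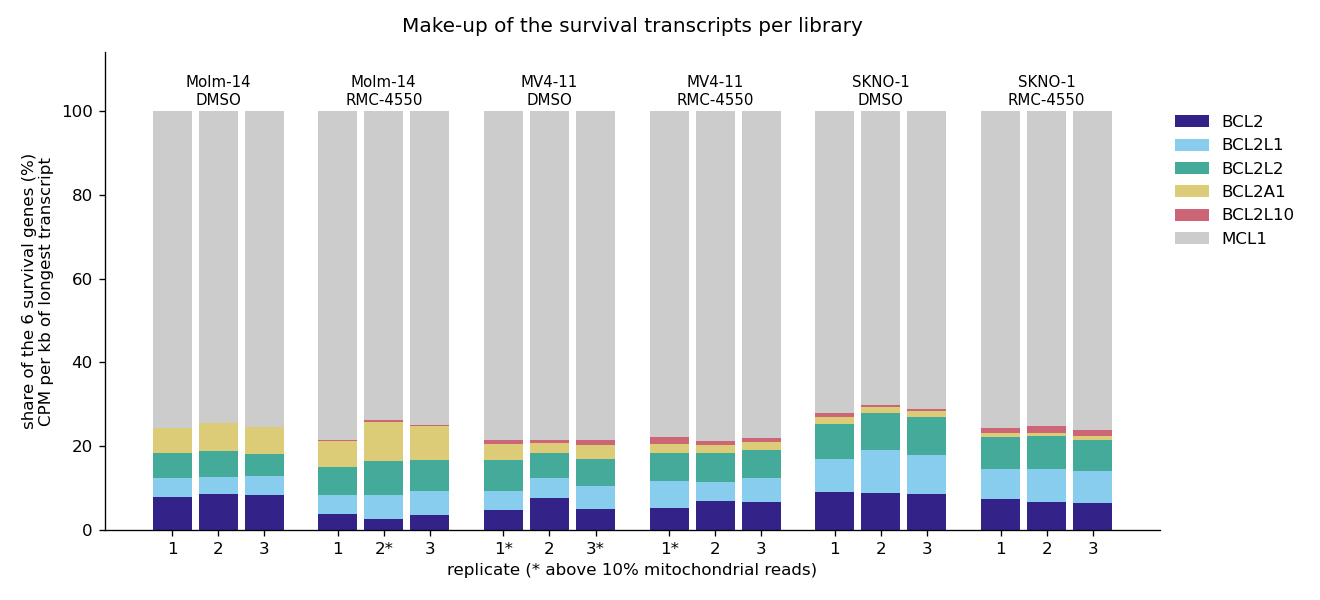
Share of each of the 6 survival genes (y axis, % of their summed CPM per kb of longest transcript) in each library (x axis, replicate number within line and treatment; asterisks mark the libraries above 10% mitochondrial reads). MCL1 fills 70.2% to 78.7% of every bar, and the BCL2 segment of Molm-14 shrinks from 7.86% to 8.56% with DMSO to 2.63% to 3.84% with RMC-4550.

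Levels in CPM with DMSO were then compared between lines with limma, on log2 values over all genes tested and two-sided, and a gene was called at a Benjamini-Hochberg adjusted p under 0.05. BCL2A1 differed in all 3 pairs of lines. Its levels were 7.33, 8.36 and 7.97 CPM in Molm-14, 4.74, 3.27 and 3.77 CPM in MV4-11, and 1.75, 1.42 and 1.51 CPM in SKNO-1, with no overlap between lines. The fitted difference was -1.02 (SE 0.19, adjusted p 0.000276) for MV4-11 against Molm-14, -2.33 for SKNO-1 against Molm-14 (adjusted p 1.28e-08) and -1.31 for SKNO-1 against MV4-11 (adjusted p 3.91e-05). BCL2L1 was higher in SKNO-1 (20.2, 26.1 and 23.5 CPM) than in Molm-14 (14.2, 12.9 and 15.0 CPM), by 0.73 on the log2 scale (adjusted p 5.11e-05), and than in MV4-11 by 0.59 (adjusted p 0.000994). MCL1 was lower in SKNO-1 (274, 269 and 267 CPM) than in Molm-14 (357, 355 and 361 CPM), by a log2 difference of -0.41 (adjusted p 0.00166), and than in MV4-11 (-0.44, adjusted p 0.0019). These BCL2A1, BCL2L1 and MCL1 calls were kept under every alternative in which the gene could be tested and with each library left out.

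The BAX, BCL2L2 and BCL2 differences between the DMSO groups were lost when some single libraries were left out, and under some of the 11 other settings. Between MV4-11 and Molm-14, 6 settings ended the BCL2 call and 4 the BAX call. Between SKNO-1 and Molm-14, 1 ended the BAX call and 1 the BCL2L2 call. BAX, the effector that is mostly cytosolic until activated, was higher in MV4-11 than in Molm-14 by 0.26 (adjusted p 0.0184) and higher in SKNO-1 than in Molm-14 by 0.23 (adjusted p 0.026). The first BAX difference was 0.09 and not called without the 4 libraries above 10% mitochondrial reads, and it was lost without MV4-11 replicate 1 (0.20) or 3 (0.23). The second was lost with 5 of the 6 libraries left out in turn, at 0.21 to 0.24. These were the 3 Molm-14 replicates and SKNO-1 replicates 2 and 3. BCL2L2 was higher in SKNO-1 than in Molm-14 by 0.24 (adjusted p 0.0332), a call lost without Molm-14 replicate 1 or 3 or SKNO-1 replicate 2 or 3 (0.17 to 0.26). BCL2 was lower in MV4-11 than in Molm-14 by a log2 difference of -0.57 (adjusted p 0.0485), but the difference was 0.03 without the 4 libraries above 10% mitochondrial reads. It was also not called when MV4-11 replicate 1 or 3, or any Molm-14 replicate, was left out (-0.61 to -0.41).

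In all, 4 of 8 tested members were called between MV4-11 and Molm-14, 5 of 7 between SKNO-1 and Molm-14 and 3 of 8 between SKNO-1 and MV4-11. Over all genes tested in these comparisons the called shares were 54.2%, 65.3% and 42.5%, so the members' counts were near the background. The first count includes BCL2L10, which had 20 to 27 reads in MV4-11 and 1 to 4 reads in Molm-14 and passed the filter on low values through MV4-11 alone. Its fitted difference of 3.19 (adjusted p 2.57e-06) was the largest of the members' differences, and it is given as a description, because a gene that passes the filter through its high group alone had to differ.

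With RMC-4550, 2 of 7 tested members were called in Molm-14, both lower, where 46.7% of all genes were called (21.5% higher and 25.2% lower). In MV4-11, 1 of 8 was called, lower, against 13.9% of all genes (5.85% higher and 8.03% lower). The SKNO-1 libraries gave 3 calls among 8, 1 higher and 2 lower, against 27.1% of all genes (10.8% higher and 16.2% lower). The higher call was BCL2L10, which met the filter on low values in the 3 treated libraries and 1 DMSO library. Under median-ratio scaling the higher share of all calls was 50.7% (Molm-14), 51.8% (MV4-11) and 50.5% (SKNO-1), against 46%, 42.2% and 40% with the deposited scaling. Treated and DMSO libraries did not overlap for 4 of 7 members in Molm-14, 1 of 8 in MV4-11 and 5 of 8 in SKNO-1, where 60%, 24.6% and 62% of all genes did not. The median log2 change of the tested members was 0.17 (Molm-14), -0.01 (MV4-11) and -0.15 (SKNO-1), beside -0.06, -0.01 and -0.05 over all genes. Responses thus differed gene by gene, and the counts were at or below the background in Molm-14 and MV4-11 and near it in SKNO-1.

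**Figure D2:**
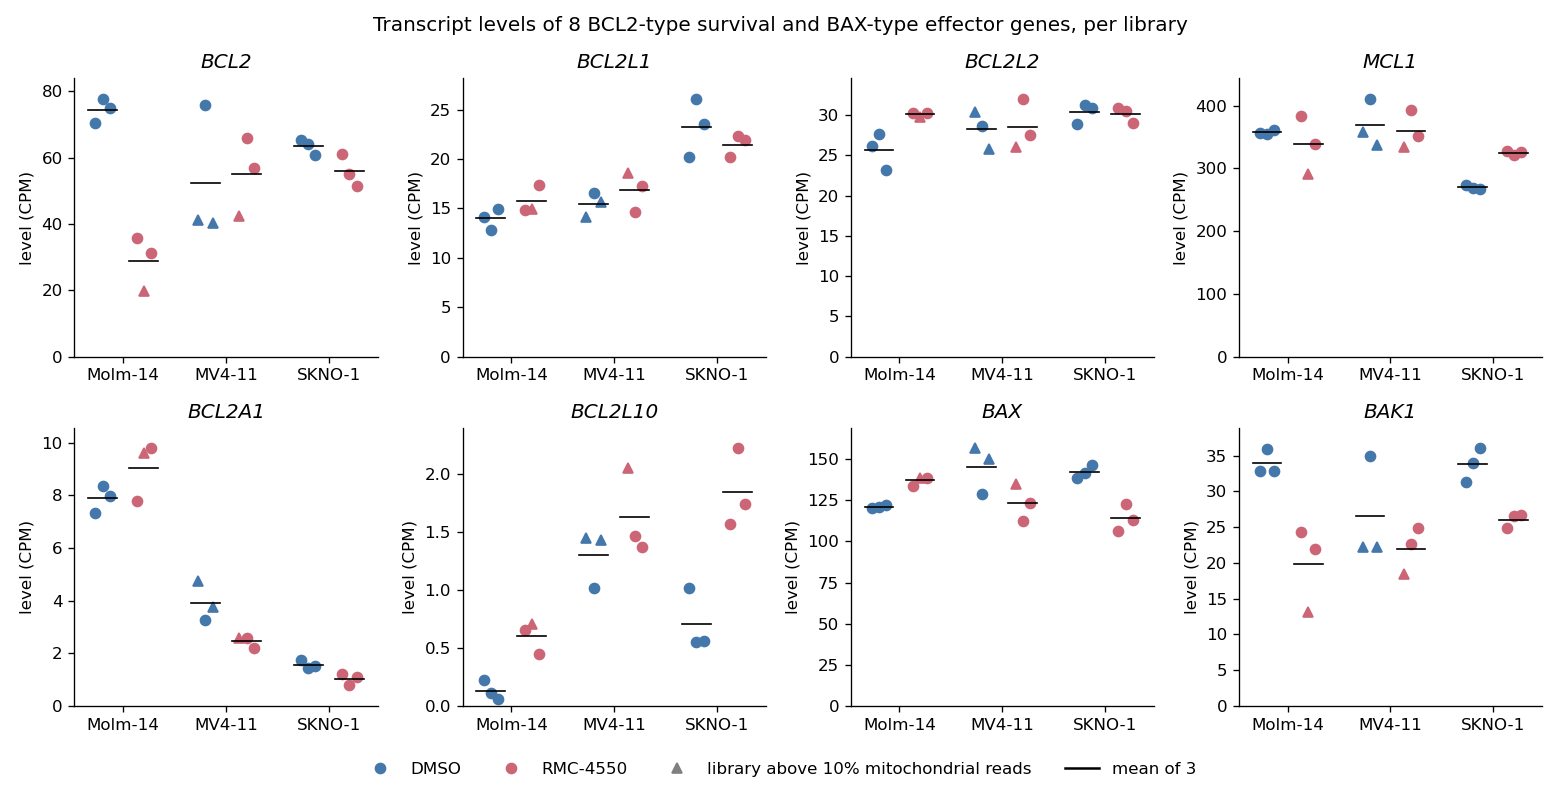
Level in CPM (y axis, linear, from 0) of 8 of the 9 genes in each library of the 3 lines (x axis); points are libraries, triangles those above 10% mitochondrial reads, and bars the mean of 3. BCL2 in Molm-14 falls from 74.4 to 28.8 CPM on average with no overlap, while BCL2 in MV4-11 is near 40 CPM in each of the 3 triangle libraries whatever the treatment.

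BCL2 fell with RMC-4550 in Molm-14. Its levels were 70.5, 77.7 and 75.0 CPM with DMSO and 35.6, 19.7 and 31.2 CPM with RMC-4550. All treated libraries lay below all DMSO libraries, and the lowest was the library with 15.0% mitochondrial reads. The fitted log2 change was -1.41 (SE 0.23, adjusted p 0.000151) and the level dropped by 62.3%. Without that library it was -1.16, and the call was kept under all 11 other settings and with each of the 6 Molm-14 libraries left out. Lower transcript abundance in bulk RNA may come from fewer cells with the transcript or from less RNA per cell, which cannot be told apart.

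BCL2 did not pass the test in MV4-11. The levels were 41.2, 75.8 and 40.2 CPM with DMSO and 42.3, 66.1 and 56.8 CPM with RMC-4550. The groups overlapped, and the 3 lowest values were those of the 3 MV4-11 libraries above 10% mitochondrial reads. The fitted change was 0.11 (SE 0.23, adjusted p 0.807). Among the libraries under 10% (1 DMSO and 2 treated) the difference was -0.31, and among those above 10% (2 and 1) it was 0.06. The change was also slightly negative (-0.05 to -0.03) without DMSO replicate 1, DMSO replicate 3 or treated replicate 2.

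In SKNO-1, BCL2 was 65.5, 64.1 and 60.8 CPM with DMSO and 61.2, 55.1 and 51.4 CPM with RMC-4550. The highest treated library lay just above the lowest DMSO library. The log2 change of -0.19 (SE 0.23) missed the threshold (adjusted p 0.605). It passed when SKNO-1 was fitted alone (adjusted p 0.0285) or when the 4 libraries of the other lines above 10% mitochondrial reads were left out (adjusted p 0.0456).

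As a share of the survival total, BCL2 went from 8.23% ± 0.351 to 3.36% ± 0.644 in Molm-14, from 5.78% ± 1.62 to 6.27% ± 0.952 in MV4-11 and from 8.81% ± 0.26 to 6.86% ± 0.554 in SKNO-1 (SD, n = 3). In SKNO-1 the total itself went from 96.6 to 109 CPM per kb, while BCL2 levels overlapped (log2 change -0.19, not called). The fall in share there is thus not one of BCL2 alone. The shares with DMSO and RMC-4550 did not overlap in Molm-14 or SKNO-1. The exact two-sided permutation p was 0.1 in each of these lines, the smallest that 3 against 3 allows, and 0.15 after adjustment over the 3 lines. In MV4-11 the exact permutation p was 0.8. The MV4-11 difference was 0.49 percentage points, was -0.03 without DMSO replicate 1, and was -0.84 without the libraries above 10% mitochondrial reads. The BCL2 to MCL1 ratio per length with RMC-4550 was 0.0443 in Molm-14, 0.0801 in MV4-11 and 0.0906 for SKNO-1. By mean ratio, Molm-14 thus went from between the other lines to the lowest of the 3.

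MCL1 passed the test in no line, although some alternatives called it in SKNO-1 and MV4-11. In SKNO-1 it was 274, 269 and 267 CPM with DMSO and 328, 322 and 325 CPM with RMC-4550. Every treated library was higher, and the groups were far apart relative to their spread. The log2 change was 0.27 (SE 0.10), a level 20.4% higher, with an adjusted p of 0.0535. It was called under 9 of 11 other settings (0.27 to 0.33), the exceptions being no filter on low values and a prior variance without a trend, and with 0 of the 6 SKNO-1 libraries left out in turn (adjusted p 0.1 to 0.131). The MCL1 share of the survival total in SKNO-1 went from 71.1% to 75.7% ± 0.512 without overlap (exact permutation p 0.1). In Molm-14 MCL1 was 357, 355 and 361 CPM with DMSO and 384, 291 and 340 CPM with RMC-4550, with the lowest value in the library with 15.0% mitochondrial reads. The log2 change there was -0.09, and 0.01 without that library. In MV4-11 it was -0.03 (adjusted p 0.873), and it lay between -0.10 and 0.05 with single libraries left out. It was -0.14 and not called without the 4 libraries above 10% mitochondrial reads (adjusted p 0.18), and -0.14 and called with the share as a covariate (adjusted p 0.0342). The counts do not separate the long MCL1 isoform from the short one, which has the opposite function.

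BCL2A1 fell in MV4-11 and SKNO-1. In MV4-11 its levels were 4.74, 3.27 and 3.77 CPM with DMSO and 2.59, 2.58 and 2.18 CPM with RMC-4550. The groups did not overlap, and the log2 change was -0.66 (SE 0.19, adjusted p 0.0259). Among the MV4-11 libraries under 10% mitochondrial reads it was -0.46 (adjusted p 0.237 without the 4 libraries), and among those above it was -0.70. The MV4-11 call was lost without DMSO replicate 1 (-0.52) or 3 (-0.68) or treated replicate 2 (-0.70) or 3 (-0.58).

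In SKNO-1, BCL2A1 was read 38, 31 and 32 times with DMSO and 26, 17 and 24 times with RMC-4550. Again no treated library reached the DMSO libraries. The log2 change was -0.60 (SE 0.19, adjusted p 0.0243). This call was lost without DMSO replicate 1 (-0.52) or 3 (-0.63) or treated replicate 2 (-0.43), with voom weights, with no filter, and on the log2(CPM + 1) scale (-0.34). In Molm-14, where BCL2A1 was highest, the levels were 7.33, 8.36 and 7.97 CPM with DMSO and 7.76, 9.61 and 9.78 CPM with RMC-4550, which overlapped (0.19, adjusted p 0.409).

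BCL2L10, a relative best known from the oocyte, was higher with RMC-4550 in SKNO-1, at a low level. It was read 22, 12 and 12 times with DMSO and 34, 48 and 38 times with RMC-4550, which is 0.710 ± 0.264 and 1.85 ± 0.339 CPM (SD, n = 3). The groups did not overlap, and the log2 change of 1.39 (SE 0.37) had an adjusted p of 0.00994. The filter was met by the 3 treated libraries and 1 DMSO library, so the group with the high values decided that the gene was tested. With no filter on low values the adjusted p was 0.0283. In Molm-14 it was read 4, 2 and 1 times with DMSO and 12, 11 and 8 times with RMC-4550, without overlap but below the filter, so it was not tested there. In MV4-11 the 27, 20 and 24 reads with DMSO and 39, 29 and 27 with RMC-4550 touched at 27 (log2 change 0.31, adjusted p 0.649).

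BCL2L1 did not pass the test in any line. Its levels with RMC-4550 were 14.9 to 17.4 CPM in Molm-14, 14.7 to 18.6 in MV4-11 and 20.2 to 22.3 for SKNO-1, which overlapped the DMSO levels in each line (log2 changes 0.17, 0.12 and -0.11). BCL2L2 was 26.2, 27.7 and 23.2 CPM in Molm-14 with DMSO and 30.2, 29.8 and 30.3 CPM with RMC-4550. The treated libraries were all higher, and the change of 0.23 (SE 0.09) had an adjusted p of 0.0549. It was called under 5 of 11 other settings, among them without the 4 libraries above 10% mitochondrial reads (0.24, adjusted p 0.0215), and without DMSO replicate 2 (0.29). In MV4-11 and SKNO-1 the BCL2L2 changes were 0.01 and -0.01. BCL2L2 values are uncertain, since the gene shares exons with PPP1R3E on the opposite strand (up to 28.1 CPM) and with the read-through gene BCL2L2-PABPN1, and whether reads were counted by strand is not given in the sources used here.

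BAX had changes of opposite sign in Molm-14 and SKNO-1, of which the fall in SKNO-1 was called. In SKNO-1 it was 139, 142 and 146 CPM with DMSO and 106, 123 and 113 CPM with RMC-4550. The treated libraries were all lower, and BAX fell by 0.32 on the log2 scale (SE 0.09, adjusted p 0.0108). The call was lost under quantile normalization (-0.22, adjusted p 0.138) and without treated replicate 1 (-0.27, adjusted p 0.0532). In Molm-14 it was 120, 121 and 122 CPM with DMSO and 134, 139 and 139 CPM with RMC-4550, all treated libraries being higher. That change of 0.18 (SE 0.09) was not called (adjusted p 0.0977), and it was called without the 4 libraries above 10% mitochondrial reads (0.17, adjusted p 0.0227), under median-ratio scaling (0.23) and under quantile normalization (0.30). In MV4-11 BAX was 157, 129 and 150 CPM with DMSO and 135, 113 and 123 CPM with RMC-4550, which overlapped. The MV4-11 change was -0.23 (adjusted p 0.0862). It was -0.13 below 10% mitochondrial reads and -0.18 above, and it was called without DMSO replicate 2 (-0.32) or treated replicate 1 (-0.30).

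BAK1, the effector that resides in the mitochondrial membrane, fell in Molm-14. Its levels were 32.9, 35.9 and 32.9 CPM with DMSO and 24.4, 13.1 and 21.9 CPM with RMC-4550. All treated libraries were lower, and the lowest was again the library with 15.0% mitochondrial reads. The log2 change was -0.82 (SE 0.20, adjusted p 0.00363), and -0.55 without that library, with the call kept under all 11 other settings and with each library left out. In SKNO-1 BAK1 was 31.3, 34.0 and 36.0 CPM with DMSO and 24.9, 26.5 and 26.6 CPM with RMC-4550, also without overlap. That change of -0.37 was not called (adjusted p 0.194), and it was called when SKNO-1 was fitted alone, with a covariate for mitochondrial share, and without the 4 libraries of the other lines (adjusted p 0.000352).

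BAK1 was not called in MV4-11, where its level varied with the mitochondrial share. It was 22.2 and 22.3 CPM in the DMSO libraries above 10% and 35.0 CPM in the other. With RMC-4550 it was 18.4 CPM in the library above 10% and 22.7 and 24.9 CPM in the others. The change over all 6 libraries was -0.25 (adjusted p 0.49). It was -0.56 among those under 10%, -0.28 among those above 10%, and -0.52 with the share as a covariate (adjusted p 6.05e-05). The part of the mitochondrial share in these levels was not tested beyond these values. BOK, an effector that does not need BAX or BAK1, had 1 to 14 reads in every library and was tested in no line.

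**Figure D3:**
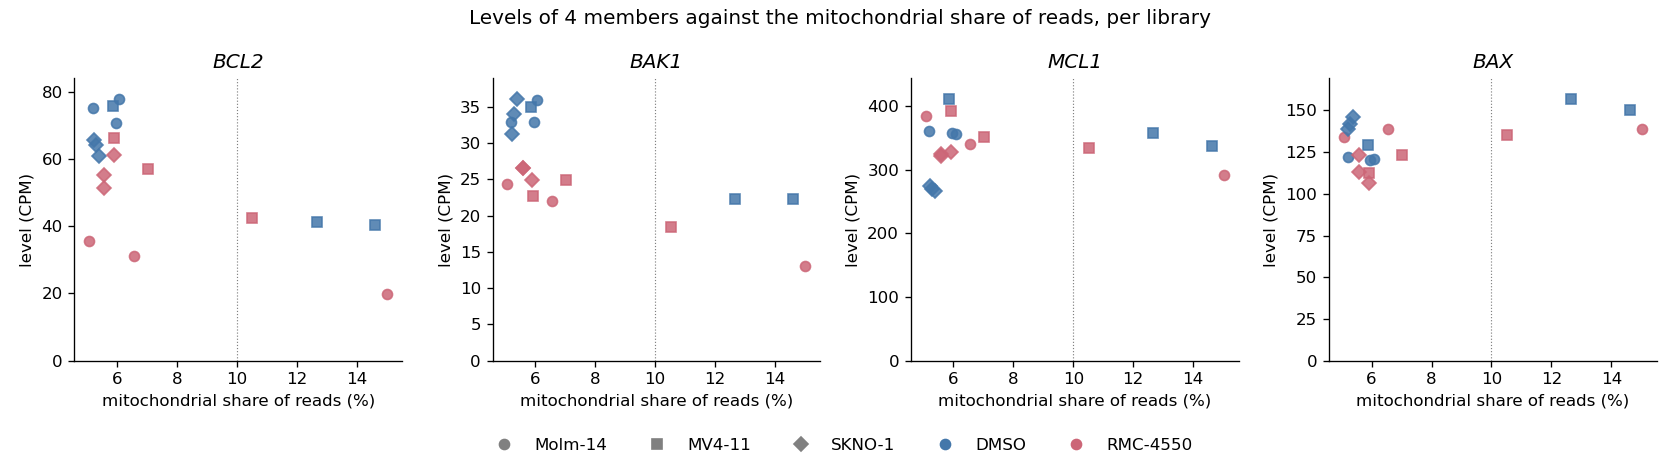
Level in CPM (y axis, linear, from 0) of BCL2, BAK1, MCL1 and BAX in each library against its share of mitochondrial reads (x axis, %; the dotted line is at 10%). Shapes are lines and colours are treatments; in the MV4-11 libraries above 10%, BCL2 lies at 40.2 to 42.3 CPM and BAK1 at 18.4 to 22.3 CPM, below the MV4-11 libraries to the left of the line.

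Summed per length, the 3 effector genes went from 120 to 96.0 ± 6.57 CPM per kb in SKNO-1 with RMC-4550, while the 6 survival genes went from 96.6 ± 1.04 to 109 ± 0.903. The survival to effector ratio was 0.805 ± 0.0322 with DMSO and 1.14 ± 0.0853 with RMC-4550, without overlap (exact permutation p 0.1, the smallest possible). In Molm-14 the ratio moved the other way, from 1.16 ± 0.00551 to 1.03 ± 0.102, also without overlap (exact permutation p 0.1). In MV4-11 it was 1.01 ± 0.164 and 1.17 ± 0.177 and overlapped (exact permutation p 0.3). MCL1 and BAX dominate these sums.

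**Figure D4:**
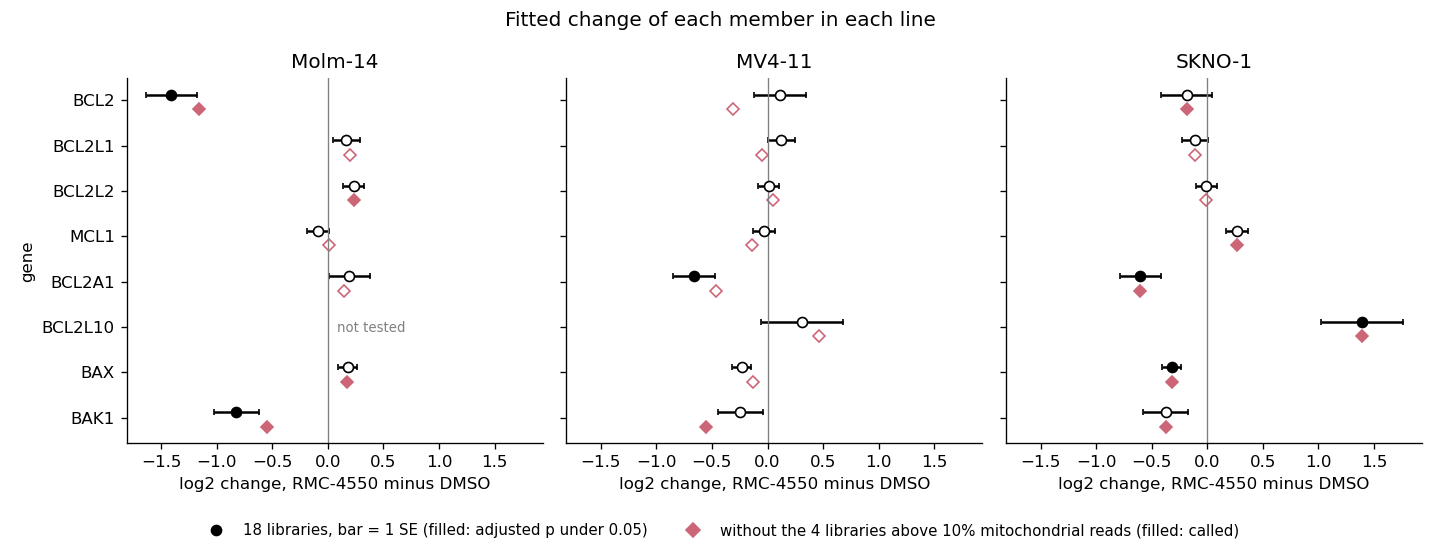
Fitted log2 change (x axis, RMC-4550 minus DMSO, the same scale in each panel) of 8 genes (y axis) in the 3 lines; circles with bars are the fit over 18 libraries ± 1 SE, diamonds the fit without the 4 libraries above 10% mitochondrial reads, and filled symbols are called. BCL2 in Molm-14 lies at -1.41. BAK1 in MV4-11 lies at -0.25 (circle) and -0.56 (diamond), and every MV4-11 diamond rests on 1 DMSO library.

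The responses themselves were compared between lines, where both comparisons with Molm-14 share its libraries. The BCL2 response of MV4-11 exceeded that of Molm-14 by 1.52 (SE 0.33, adjusted p 0.00597), and that of SKNO-1 exceeded it by 1.22 (SE 0.33, adjusted p 0.0248). Both were in the direction of a deeper fall in Molm-14. Without the 4 libraries above 10% mitochondrial reads the difference for SKNO-1 was 0.97, still called. That for MV4-11 was 0.85, in a fit that keeps 1 DMSO library of that line. The BAX response was lower in MV4-11 than in Molm-14 by a log2 difference of -0.41 (adjusted p 0.0282) and lower in SKNO-1 than in Molm-14 by -0.50 (adjusted p 0.0141). The BCL2A1 response was lower in MV4-11 than in Molm-14 by -0.86 (adjusted p 0.0345), and -0.60 and not called without the 4 libraries. In total 3 of 7 members differed between MV4-11 and Molm-14 and 2 of 7 between SKNO-1 and Molm-14, against 19.5% and 10.9% of all genes. Between SKNO-1 and MV4-11 limma called 0 of 8 (1, MCL1, at an unadjusted p under 0.05), against 1.66% of all genes. Of the 5 calls, leaving out single libraries ended that of BCL2 in SKNO-1 in 5 of 12 omissions (1.16 to 1.23), that of BAX in MV4-11 in 7 (-0.42 to -0.35) and that of BCL2A1 in MV4-11 in 9 (-0.90 to -0.71). The BAK1 responses, although called in Molm-14 alone, were not shown to differ between Molm-14 and SKNO-1 (0.45, adjusted p 0.353) or MV4-11 (0.58, adjusted p 0.153).

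Genes with the most similar profiles were found by the root mean square difference of log2 values over the 18 libraries, each gene centred on its own mean. Nearest to BCL2 were AGPAT5 (0.0915), ZFR (0.121) and TMEM97 (0.159), against a median of 0.613 over 11027 genes. AGPAT5, an acyltransferase of phospholipid synthesis, went from 83.8 to 32.2 CPM in Molm-14 and from 70.1 to 61.6 CPM in SKNO-1. Nearest to MCL1 were MFSD14CP (0.103), CD47 (0.105) and SFT2D2 (0.116), against a median of 0.415. Nearest to BCL2A1 were MRFAP1L1, PDGFA and RRAGB (0.256 each), against a median of 1.17. PDGFA, which encodes a growth factor subunit, went from 33.3 CPM in Molm-14 to 19.96 in MV4-11 and 7.74 for SKNO-1 with DMSO.

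The BH3-only genes, whose products antagonise the survival proteins, changed in different combinations. In Molm-14, 2 of 8 rose (BAD and BMF) and 2 fell (BID and PMAIP1), a count near the 46.7% of all genes called there. BMF, whose protein is released from the cytoskeleton, rose from 66.8 ± 2.45 to 296 ± 43.4 CPM (SD, n = 3), and PMAIP1, whose product NOXA binds MCL1 and BFL1 (the protein of BCL2A1), fell from 24.7 ± 1.30 to 14.6 ± 2.20 CPM (log2 change -0.77, adjusted p 3.37e-05). In SKNO-1 PMAIP1 rose from 14.7 ± 0.428 to 22.9 ± 0.680 CPM (0.64, adjusted p 0.000316). BCL2L11, which encodes BIM, rose in SKNO-1 from 31.8 ± 1.86 to 84.7 ± 5.67 CPM. In that line 4 of 7 tested BH3-only genes rose (BCL2L11, BIK, BMF and PMAIP1) and 1 fell (BBC3), beside 10.8% and 16.2% of all genes. With no filter 3 rose and 0 fell, and under quantile normalization 4 rose and 0 fell, settings for which no share over all genes is given. In MV4-11, limma called 2 of 8 higher, BCL2L11 from 23.5 ± 10.1 to 47.8 ± 14.1 CPM and BMF from 119 ± 14.7 to 170 ± 20.6 CPM, and 0 lower (0 also at an unadjusted p under 0.05), beside 5.85% and 8.03% of all genes. Both calls were lost when MV4-11 was fitted alone. That of BCL2L11 was also lost without DMSO replicate 1 or 3 or treated replicate 2 or 3 (0.78 to 1.02). The median log2 changes of the BH3-only genes tested were 0.11, 0.15 and 0.37, in the order Molm-14, MV4-11, SKNO-1. Without the 4 libraries above 10% mitochondrial reads, 7 of 8 were called in Molm-14 (4 higher and 3 lower), 2 of 7 in MV4-11 and 5 of 7 in SKNO-1, beside 58.7%, 28.4% and 53.3% of all genes.

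Among 12 genes of the apoptosome and the caspases, CYCS fell in all 3 lines. CYCS encodes cytochrome c, which activates the apoptosome once the effectors open the membrane. It went from 193 ± 7.49 to 81.0 ± 9.76 CPM in Molm-14 (-1.26, adjusted p 3.03e-07), from 124 ± 12.8 to 80.9 ± 9.36 in MV4-11 (-0.62, adjusted p 0.00117) and from 70.4 ± 1.11 to 32.5 ± 3.72 in SKNO-1 (-1.12, adjusted p 1.79e-06). BIRC5, which encodes the mitotic protein survivin, fell in Molm-14 (-1.23) and SKNO-1 (-1.21). In all, 2 rose and 3 fell of 11 tested in Molm-14, 1 rose (CASP9, 0.34) and 1 fell of 11 in MV4-11, and 2 of 12 fell in SKNO-1. The called shares of all genes were 46.7%, 13.9% and 27.1%, so these counts were near or below the background. The CASP9 call in MV4-11 was lost with no filter, when the line was fitted alone and without treated replicate 3 (0.33). The median log2 changes of this list, in the same order, were -0.09, -0.02 and -0.23. Without the 4 libraries above 10% mitochondrial reads, 7 of 11, 5 of 11 and 6 of 12 were called, beside 58.7%, 28.4% and 53.3% of all genes. With each line fitted alone the counts were 5, 1 and 8, a fit for which no share over all genes is given.

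BCL2L12, a divergent BCL2 relative, was the one called gene of 3 tested relatives in each line, beside 46.7%, 13.9% and 27.1% of all genes. Its log2 change was -0.51 (adjusted p 0.00282) for Molm-14, -0.50 (adjusted p 0.0113) for MV4-11 and -0.59 (adjusted p 0.00167) for SKNO-1. The MV4-11 call was lost when that line was fitted alone and without DMSO replicate 3 or treated replicate 2 (-0.46 to -0.45). A further relative was called, higher, in MV4-11 under quantile normalization, and in SKNO-1 in 3 settings (fitted alone, with the mitochondrial covariate and without the 4 libraries). Of 6 genes whose products regulate BAX, BAK1 or MCL1, 3 fell in Molm-14 and 1 fell in SKNO-1, while in MV4-11 limma called 0 (0 also at an unadjusted p under 0.05, and 2, both lower, without the 4 libraries). Among all genes 25.2%, 16.2% and 8.03% fell in Molm-14, SKNO-1 and MV4-11. In SKNO-1 the count was 3, all lower, with the line fitted alone, a fit for which no share over all genes is given. Without the 4 libraries it was 4 of 6 in SKNO-1 and 5 of 6 in Molm-14, all lower. Beside these, 53.3% and 58.7% of all genes were called in either direction. The median log2 changes of these regulators were -0.35, -0.02 and -0.17, and those of the relatives -0.14, -0.14 and 0.07, in the order used above. HUWE1, a ubiquitin ligase of MCL1, fell in Molm-14 from 325 ± 15.2 to 209.8 ± 60.3 CPM (-0.67, adjusted p 0.0317), a call lost with no filter and without any DMSO replicate or treated replicate 2 (-0.71 to -0.42). VDAC2, which anchors BAK1 and BAX at the mitochondrion, fell in SKNO-1 from 159 ± 1.89 to 136 ± 5.07 CPM (-0.22, adjusted p 0.0392). That call was lost with no filter, under median-ratio scaling, under quantile normalization and without a trend, and with each of the 6 SKNO-1 libraries left out (-0.25 to -0.19).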

How the data were processed

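The authors deposited 1 table of log2 values for 18 libraries. Per the labels' protocols, messenger RNA was selected with oligo(dT) beads and sequenced from DNA nanoballs. FastQC, STAR, limma and the build GRCh38 are named per the submitters' processing notes. The annotation, the counting and its strand are not given in the sources used here. From the values, each is log2 of reads plus 0.5 over a scaled library, as CPM (scaling factors 0.890 to 1.11). Whole reads came back for 100% of values under 30 reads (tolerance 0.02 reads), and CPM without the added 0.5 was computed from them. The amplified reads carry no molecular identifiers and are not independent molecules. Symbols matched 40069 of 40184 identifiers. Transcript lengths come from GENCODE 29.

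A fit with limma 3.58.1 in R 4.3.3 (lmFit, eBayes with a trend, two-sided) used 1 coefficient per group. It took the 16262 genes that reached 1 CPM in 3 or more libraries. A contrast tested genes that also passed this in its own line or DMSO pair, and in both lines for response differences. Adjustment was over all genes tested. On simulated reads for Molm-14 (13613 genes, 200 changed), 157 were recovered with the right sign and 4.27% of 164 calls were false. The simulation gave every gene and group the same dispersion (0.01). In the data the spread was unequal, with a median SD of log2 values of 0.30 for Molm-14 with RMC-4550 and 0.08 with DMSO. The simulated share of false calls therefore does not carry over to the contrasts.

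The 9 members and all lists were chosen with earlier results of these data known. The text names all members, the 2 called genes with the largest change per list and line, and the 3 nearest profiles (mean of at least 5 CPM) of BCL2, MCL1 and BCL2A1. Other called list genes are named by symbol. The values of 1 list gene are not reported here. AGPAT5 and PDGFA were picked from the nearest genes after their values were seen. Alternatives were log2(CPM + 1), no filter, a 5 CPM minimum mean, quantile normalization, median-ratio scaling, separate fits, a replicate block, no trend, voom weights, the mitochondrial share as a covariate, other lengths, and each library left out. Leaving out the 4 libraries above 10% mitochondrial reads, and a block shared across lines, were added after seeing the data.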

Additional observations from a re-analysis of the deposited data

Results flagged for a closer look

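The test of the difference between 2 lines' responses to RMC-4550 passed the threshold for 5 results, all against Molm-14. For BCL2 the difference was 1.52 in MV4-11 and 1.22 in SKNO-1 (log2). The first was kept under all 11 other settings and all 12 single-library omissions, at 0.85 to 1.82. Among these settings, the one without the 4 libraries above 10% mitochondrial reads keeps 1 DMSO library in MV4-11. The second was kept under the 11 settings and lost in 5 of 12 omissions, with adjusted p up to 0.0658. These were Molm-14 DMSO replicates 2 and 3, SKNO-1 DMSO replicates 2 and 3, and SKNO-1 RMC-4550 replicate 1, at 1.16 to 1.23.

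For BAX the difference was -0.41 in MV4-11 and -0.50 in SKNO-1. The MV4-11 difference was lost with no filter, in a separate fit and in 7 of 12 omissions: any Molm-14 DMSO replicate, MV4-11 DMSO replicates 1 and 3, and MV4-11 RMC-4550 replicates 2 and 3 (-0.42 to -0.35). The SKNO-1 difference was lost only with no filter among the settings run (adjusted p 0.0544) and in 0 of 12 omissions. For BCL2A1 the difference was -0.86 in MV4-11. It was lost with no filter, with the mitochondrial covariate (-0.69), without the 4 libraries above 10% mitochondrial reads (-0.60) and in 9 of 12 omissions (-0.90 to -0.71), the exceptions being Molm-14 RMC-4550 replicate 1, MV4-11 DMSO replicate 2 and MV4-11 RMC-4550 replicate 1.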

How the results depend on the processing

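The number of called members in Molm-14 (2) was 4 under median-ratio scaling, quantile normalization and without the 4 libraries above 10% mitochondrial reads, and 2 to 3 with single libraries left out. In MV4-11 (1) it was 0 with no filter, with a mean of at least 5 CPM (which leaves BCL2A1 untested) and in a separate fit, 4 with the mitochondrial covariate, and 0 to 2 with single libraries left out. In SKNO-1 (3) it was 6 in a separate fit and without the 4 libraries, 5 with the covariate, and 2 to 3 with single libraries left out. Without the 4 libraries the called share of all genes also rose, from 27.1% to 53.3% in SKNO-1 and from 46.7% to 58.7% in Molm-14. Shares of all genes under the other settings are not given here. Between MV4-11 and Molm-14 with DMSO (4) it was 2 with no filter, a mean of at least 5 CPM, a separate fit and without the 4 libraries, and 1 to 4 with single libraries left out. Single omissions gave 3 to 5 between SKNO-1 and Molm-14 (5) and 3 to 6 between SKNO-1 and MV4-11 (3). The 5 response differences became 2 with no filter and 2 to 7 with single omissions. Apart from the settings that change the genes tested or the samples fitted, the cause was not tested.

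The labels give replicate numbers but no shared source. Correlations of same-numbered deviations were -0.05, -0.04 and 0.003 in Molm-14, 0.39, 0.59 and -0.40 in MV4-11, and 0.13, 0.01 and 0.04 in SKNO-1. In MV4-11, differently numbered pairs reached 0.64 (DMSO replicate 3 with treated replicate 1) and -0.72 (DMSO replicate 2 with treated replicate 1). The MV4-11 values were positive where both libraries were high or both low in mitochondrial reads, and negative otherwise. These correlations therefore cannot decide whether same-numbered libraries share a source. With a replicate block the called members were 2 in Molm-14, 2 in MV4-11 (BAX added) and 4 for SKNO-1 (MCL1 added). With the number shared across lines, DMSO pairs gave 3, 5 and 4 calls and response differences 5.

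The BCL2 share with DMSO was 7.60% in Molm-14 and 7.34% in SKNO-1 with median transcript length, with coding length 19.8% in Molm-14, 14.2% in MV4-11 and 20.3% for SKNO-1, 8.78% in Molm-14 without BCL2A1 in the total, and 7.65% in MV4-11 without the 4 libraries. Single omissions gave 8.06% to 8.41%, 4.85% to 6.30% and 8.68% to 8.94%. The MV4-11 change in share was -0.84 without the 4 libraries and -0.026 to 1.42 with single omissions. Those of Molm-14 (-5.10 to -4.50) and SKNO-1 (-2.24 to -1.69) kept their sign.

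Sign changes among members occurred for changes that were not called, apart from BCL2 between MV4-11 and Molm-14 with DMSO (0.028 without the 4 libraries). With the covariate they were MCL1 in Molm-14 (0.019), BCL2L2 in MV4-11 (-0.019) and BCL2 in MV4-11 (-0.21). Without the 4 libraries they were MCL1 in Molm-14 (0.014), BCL2L1 in MV4-11 (-0.054) and BCL2 in MV4-11 (-0.31). Median-ratio scaling gave 0.0080 for MCL1 in MV4-11 and 0.055 for BCL2L2 in SKNO-1, and quantile normalization 0.11 for BCL2L2 and 0.016 for BCL2L1 in SKNO-1. Single omissions gave -0.19 to 0.014 for MCL1 in Molm-14, and in MV4-11 -0.075 to 0.072 for BCL2L2, -0.098 to 0.047 for MCL1 and -0.046 to 0.41 for BCL2. They gave -0.043 to 0.017 for BCL2L2 in SKNO-1. Depth limits BOK and BCL2L10, at under 50 reads in each library. It also limits BCL2A1, at 17 to 38 reads in SKNO-1 and 43 to 51 in MV4-11 with RMC-4550.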
